A study of Mus musculus with 8 samples.

Results

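The genes examined here encode nucleolar, rRNA-processing and RNA polymerase I proteins. The 39 members were taken from a list of symbols, out of 23356 genes in the table. No value enters the rule, but the list was made with earlier results of these data known. All 39 were among the 11397 genes that reached 1 FPKM in 1 or more groups and were tested. FPKM is a fragment count corrected for transcript length and library size, which allows comparison between genes and between groups. A difference in RNA composition between groups is not corrected. Transcription of the rRNA precursor by RNA polymerase I, its chemical modification by small nucleolar ribonucleoproteins (snoRNPs), its cleavage and its assembly with ribosomal proteins take place in the nucleolus. These steps use much of the energy of a growing cell, and the transcription factor MYC is known to drive many of the genes involved. In dendritic cells they supply the ribosomes needed for the proteins that the cells make on activation.

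RNA-seq was performed on bone marrow-derived dendritic cells (BMDCs) grown for 6 days with GM-CSF and IL-4 from mice on a C57BL/6 background (C57BL/6N in the study's methods). The 4 groups were WT control, WT with ansamitocin-P3 (AP3, 100 nM, 5 h), GEF-H1-/- control (genotype Arhgef2-/-) and GEF-H1-/- with AP3, with 2 libraries each. AP3 is a maytansine derivative that destabilizes microtubules, and GEF-H1, encoded by *Arhgef2*, is a RhoA exchange factor that microtubules hold inactive. The design asks whether the response to AP3 requires GEF-H1. All groups shared the culture, the cytokines and the library kit, and the controls were labelled as not treated, with no vehicle named. The knockout was present throughout the life of the mice and throughout the culture. Nothing states whether the libraries of a group came from separate mice or cultures, or whether WT and GEF-H1-/- mice were littermates.

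The deposited table holds 1 FPKM per gene and group, into which the 2 libraries were combined, with a 95% interval from Cuffdiff. No value of a single library was available, so no p-value is given, and differences were not tested against the spread between libraries. Changes are log2 ratios of (FPKM + 1), which understate the changes of low genes. A change was called when it was over 1 or under -1, a smaller step of 0.5 was counted beside it, and a further count took the genes whose Cuffdiff intervals did not overlap. Brackets after a log2 ratio give an approximate 95% interval, computed from the widths of the Cuffdiff intervals. The study's methods give a target for the sequencing depth, but the depth reached by each library is unknown. The median width of the interval of a member in WT control DCs was 42.4% of its FPKM. *Arhgef2* (chromosome 3, 88605966-88648052 in GRCm38) was at 42.3 FPKM in WT control, 45.9 in WT with AP3, 4.59 in GEF-H1-/- control and 4.16 in GEF-H1-/- with AP3 DCs, in the direction of the genotype labels. The 10 DC markers summed to 4973 to 7556 FPKM per group, most of it from *Cd74*, *H2-Aa* and *H2-Ab1*, while *Flt3* was at 1.07 to 2.63 FPKM, *Zbtb46* at 9.09 to 22.1 and *Ciita* at 9.56 to 23.4. Markers of neutrophils and their progenitors summed to 21784 to 37936 FPKM over 8 genes, most of it from *S100a8* and *S100a9*. Among the others, *Elane* was at 20.2 to 45.9 FPKM and *Mpo* at 21.7 to 63.1, so the cultures were not DCs alone.

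AP3 was accompanied by lower expression of almost the whole gene group in WT DCs and by little change in GEF-H1-/- DCs. Of the 39 members, 38 were lower in AP3-treated than in control WT DCs, compared with 49.6% of all genes tested. The geometric mean over the members was 29.7 FPKM in WT control, 21.4 in WT with AP3, 38.6 in GEF-H1-/- control and 37.8 in GEF-H1-/- with AP3 DCs. Thus the WT group with AP3 was the lowest, and both GEF-H1-/- groups were above WT control. This order, WT with AP3 below WT control below both GEF-H1-/- groups, held for 37 of 39 members and for 14.3% of genes tested. The exceptions were *Polr1c* and *Pes1*. In these bulk samples, fewer cells of a type and less RNA per cell cannot be told apart.

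**Figure D1:**
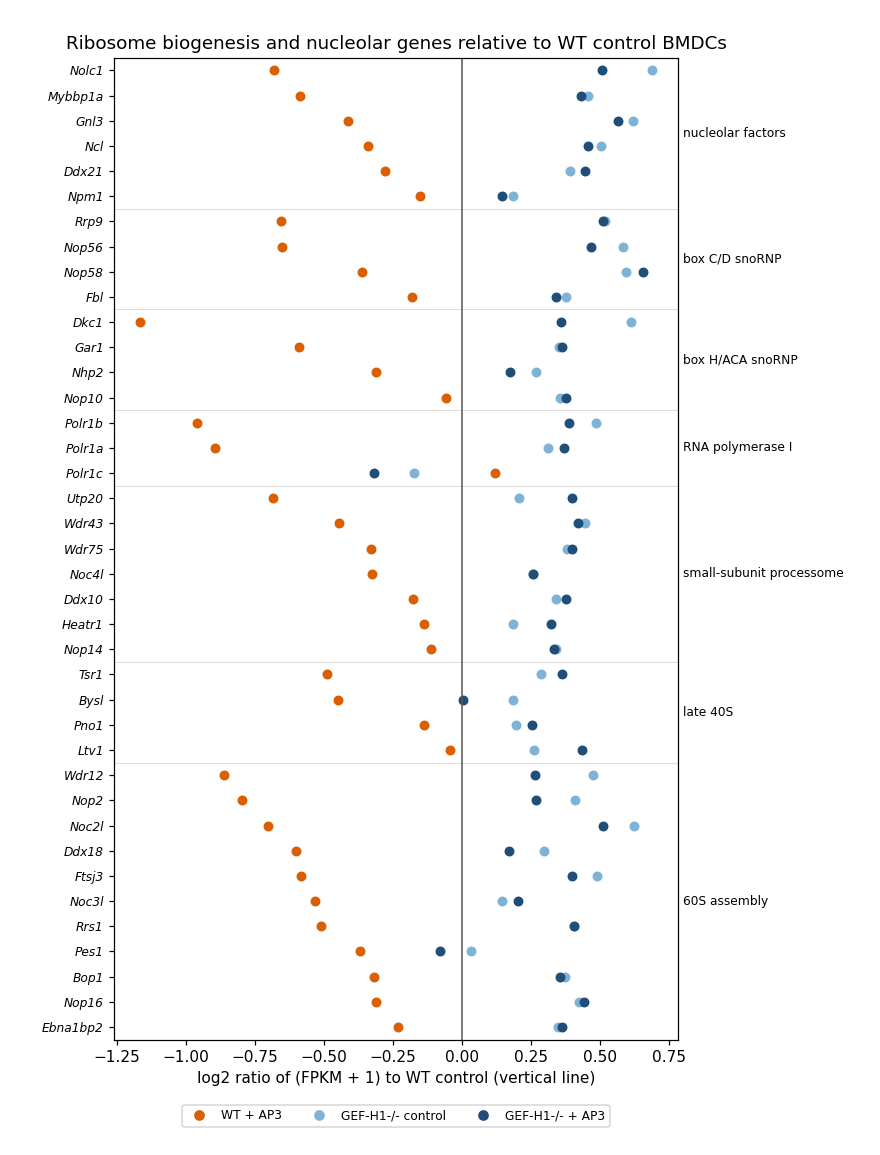
Log2 ratio of (FPKM + 1) of each of the 39 members to WT control (vertical line at 0) in WT with AP3 (orange), GEF-H1-/- control (light blue) and GEF-H1-/- with AP3 (dark blue), with members grouped by role and 1 value per group and gene. All orange points except that of *Polr1c* (0.12) lie left of the line, down to -1.17 for *Dkc1*, and the light blue points reach 0.69 for *Nolc1*.

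The decreases in WT DCs were mostly moderate. The median log2 ratio of the members was -0.41, with a range of -1.17 to 0.12, whereas the median of all genes tested was 0.00. Only *Dkc1* fell past -1, a size reached by 1.28% of genes tested, and none rose past 1, against 3.66%. When 0.1 FPKM was added instead of 1, *Polr1a* and *Polr1b* passed -1 too, and with 5 FPKM no member did. A ratio under -0.5 was found for 16 members, against 11% of genes tested, and no member was over 0.5, against 12.4%. The Cuffdiff intervals of the control and treated groups did not overlap for 11 members (*Nolc1*, *Rrp9*, *Dkc1*, *Polr1a*, *Polr1b*, *Utp20*, *Ddx18*, *Noc2l*, *Noc3l*, *Nop2* and *Wdr12*), all of them lower with AP3, against 7.58% of genes tested in that direction and 9.19% in the other. The intervals of the remaining 28 members overlapped. The approximate interval of the log2 ratio, a less strict measure, lay below 0 for 18 members, against 14.5% of genes tested, among them 7 whose Cuffdiff intervals overlapped (*Mybbp1a*, *Nop56*, *Gar1*, *Wdr43*, *Tsr1*, *Rrs1* and *Ftsj3*). The 10 members with a mean level under 20 FPKM had a median log2 ratio of -0.51 and the 29 members at or above 20 FPKM a median of -0.36. Across the members, the mean of log2(FPKM + 1) over the 4 groups and the WT log2 ratio had a Spearman's rho of 0.30 (n = 39). The genes come from the same libraries and are not independent replicates.

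In GEF-H1-/- DCs the same treatment gave a median log2 ratio of -0.02 over the members, with a range of -0.26 to 0.19, and -0.01 over all genes tested. No member passed 0.5 in either direction, against 3.85% of genes tested over 0.5 and 1.94% under -0.5, and a call past 1 was made for 0.807% of genes tested in the higher and 0.272% in the lower direction. No pair of Cuffdiff intervals was apart, against 2.75% of genes tested in the higher and 0.956% in the lower direction. In sign, 23 members were lower and 16 higher, compared with 52.3% and 47.6% of genes tested. The ratio was within 0.1 of 0 for 26 members and for 42.0% of genes tested. The difference between the genotypes (log2 ratio in GEF-H1-/- minus that in WT) had a median of 0.36 and was positive for 38 members, against 48.4% of genes tested. It was over 0.5 for 14 members, against 5.24%, and over 1 for none, against 0.535%. The approximate interval of this difference lay above 0 for 9 members (*Rrp9*, *Dkc1*, *Polr1a*, *Polr1b*, *Utp20*, *Nop2*, *Wdr12*, *Noc2l* and *Noc3l*) and for 3.52% of genes tested.

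Among all genes tested too, fewer passed the thresholds in GEF-H1-/- than in WT DCs, so members were set beside genes with decreases of like size in WT. The bounds for this were chosen after the values were seen. Among genes with a WT ratio between -1 and -0.3, 27 members had a median ratio of -0.03 in GEF-H1-/- DCs, with quartiles of -0.11 and 0.01. The 2327 other genes in that range had a median of -0.18 in GEF-H1-/- DCs, with quartiles of -0.29 and -0.09. The WT medians of the compared genes were -0.53 for the members and -0.48 for the other genes. A ratio under -0.1 in GEF-H1-/- DCs was found for 8 of the 27 members (29.6%) and for 72.3% of the other genes. These bounds leave out *Dkc1*. When all genes with a WT ratio under -0.5 were taken instead, the 16 members had a GEF-H1-/- median of -0.09, with 43.8% under -0.1. The 1239 other genes then had a median of -0.26, with 84.0% under -0.1. Over the 39 members the WT and GEF-H1-/- ratios had Pearson's r of 0.43 and Spearman's rho of 0.39, across genes measured in the same libraries.

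**Figure D2:**
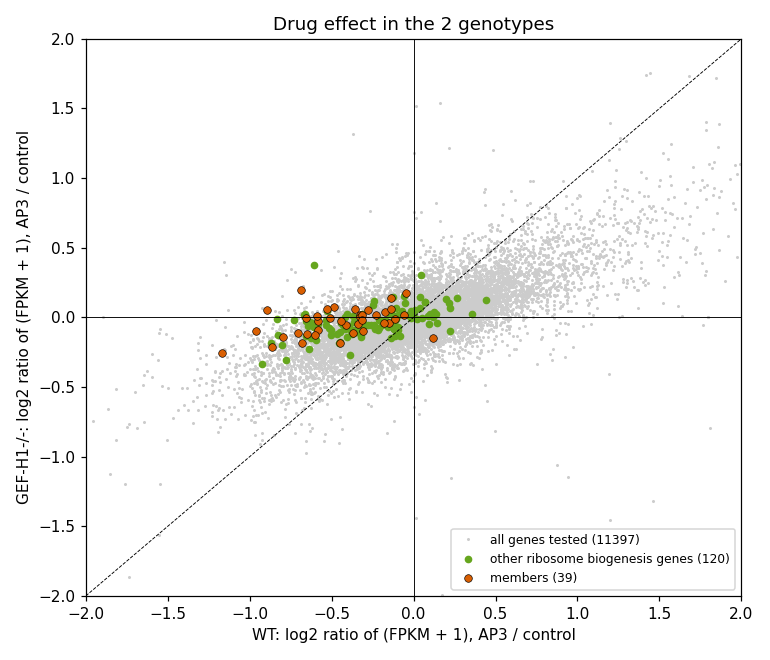
Log2 ratio of (FPKM + 1) of AP3-treated to control DCs in WT (horizontal axis) and in GEF-H1-/- (vertical axis) for 11397 genes tested (grey), 120 other ribosome biogenesis genes (green) and 39 members (orange), with 1 point per gene and the diagonal of equal change dashed. Members extend left to -1.17 and stay between -0.26 and 0.19 on the vertical axis.

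Untreated GEF-H1-/- DCs had higher levels of most members than untreated WT DCs. The median log2 ratio was 0.37, with a range of -0.17 to 0.69 and -0.01 over all genes tested. In all, 38 members were higher in GEF-H1-/- DCs, against 47.7% of genes tested. No member was over 1, against 1.26%, and 8 were over 0.5, against 4.19% (*Nolc1*, *Noc2l*, *Gnl3*, *Dkc1*, *Nop58*, *Nop56*, *Rrp9* and *Ncl*). The Cuffdiff intervals were apart for *Nolc1*, *Nop58* and *Noc2l*, against 2.86% of genes tested. Between the AP3-treated groups the median ratio of GEF-H1-/- to WT was 0.77, with a range of -0.44 to 1.52 and -0.03 over all genes tested. The higher value was in GEF-H1-/- DCs for 38 members, against 46.9% of genes tested. In that comparison 12 members were over 1, against 2% of genes tested, 29 were over 0.5, against 9.6%, and 27 had intervals apart with the higher value in GEF-H1-/-, against 7.02%. With a pseudocount of 5 FPKM, 5 of these members were over 1. These comparisons reuse the groups of the AP3 comparisons, so none of them is a separate measurement of the pattern.

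Markers of other cells and of division moved with these comparisons. All 16 cell cycle genes listed were lower in WT DCs with AP3, against 49.6% of genes tested. Their median log2 ratio was -0.47 (sum 805 FPKM in control and 623 with AP3), and 7 were under -0.5, against 11%. In GEF-H1-/- DCs their median was -0.10 with none past 0.5 (sums of 758 and 702 FPKM), against 3.85% of genes tested over 0.5 and 1.94% under -0.5. Between the controls it was -0.13, which is opposite in sign to the members. The other comparisons had the sign of the members. The genotype difference in the AP3 ratio had a median of 0.33 and was positive for all 16, against 48.4% of genes tested. Between the treated groups the median was 0.23, with 14 higher in GEF-H1-/-, against 46.9%. Between the control groups, 4.19% of genes tested were over 0.5. All 6 basophil and mast cell markers were over 0.5 in GEF-H1-/- (sums of 196 and 380 FPKM). So were 3 of 8 macrophage markers (sums of 256 and 366 FPKM). Of 8 neutrophil and progenitor markers, *Elane*, *Mpo*, *Prtn3* and *Ctsg*, made by progenitors, were over 0.5 in GEF-H1-/-. *Camp*, *Ngp* and *S100a8* were under -0.5, against 340 of the 11397 genes tested, and *S100a9* was at -0.09. With AP3 in WT, 5 of 8 macrophage markers were under -0.5, against 11% of genes tested (sum 193 FPKM with AP3). Of the 10 DC markers (sums of 5839 and 7556 FPKM), *Ccr7*, *Irf4* and *Zbtb46* were then over 0.5, against 12.4% of genes tested. *Batf3*, *Ciita* and *Flt3* were under -0.5, against 11%. T cell and B cell markers summed to 21.3 FPKM or less in every group, and no marker of any list was at 0 in all groups. The part of these cells in the results was not tested.

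MYC and its partner MAX bind the E-box CACGTG, a palindrome that reads the same on both strands. RefSeq promoter windows of GRCm38.p6, from 250 bases before to 50 bases from the start, were matched for 35 members by symbol (*Rrs1*, *Bop1*, *Fbl* and *Npm1* were not matched). The motif was in the windows of 8 of these genes (22.9%), of 12.1% of genes tested with a window, of 17.9% of other ribosome biogenesis genes and of 9.84% of ribosomal protein genes. It began at or after the start base in 7 of the 8 members and in 16.6% of the genes tested that hold it. The 8 occurrences are printed on the gene's strand, 5′ to 3′, with the E-box in capitals, to show where the motif stands in each gene.
*Pes1*, chr11:3963965-3963994, plus strand: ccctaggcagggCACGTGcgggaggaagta
*Wdr43*, chr17:71616220-71616249, plus strand: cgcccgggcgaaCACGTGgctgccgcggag
*Tsr1*, chr11:74898092-74898121, plus strand: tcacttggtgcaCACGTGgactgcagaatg
*Ltv1*, chr10:13193092-13193121, minus strand: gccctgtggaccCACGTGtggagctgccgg
*Utp20*, chr10:88826765-88826789, minus strand: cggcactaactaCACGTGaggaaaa
*Pno1*, chr11:17211540-17211564, minus strand: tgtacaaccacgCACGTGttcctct
*Mybbp1a*, chr11:72441355-72441376, plus strand: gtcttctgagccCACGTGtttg
*Nop2*, chr6:125131811-125131840, plus strand: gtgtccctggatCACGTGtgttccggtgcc
From *Pes1* to *Mybbp1a* the motif began 2, 17, 24, 28, 37, 37 and 40 bases after the start base, and in *Nop2* it began 60 bases before it. The bases around the E-box differed between the genes. The WT log2 ratio had a median of -0.47 over the 8 members with the motif, from -0.80 (*Nop2*) to -0.04 (*Ltv1*), and of -0.41 over the 27 without it, which include *Dkc1*, *Polr1a* and *Polr1b*. A match is a description of the sequence, and binding was not measured. *Myc* itself was at 61.7 FPKM (interval 50.3 to 73.2) in WT control, 49.5 (40.5 to 58.4) in WT with AP3, 83.3 (68.0 to 98.5) in GEF-H1-/- control and 77.4 (63.4 to 91.5) in GEF-H1-/- with AP3 DCs. These values stand in the same order as most members, with a WT ratio of -0.31 [-0.68, 0.05], a GEF-H1-/- ratio of -0.10 [-0.47, 0.26] and a ratio between the controls of 0.43 [0.06, 0.80]. The 10 tested genes of a listed MYC network, *Myc* among them, did not share this pattern as a set. Their median was -0.11 in WT, -0.08 in GEF-H1-/- and -0.02 between the controls. Their genotype difference had a median of -0.23, positive for 4 and negative for 6.

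RNA polymerase I transcribes the rRNA precursor, and the WT ratios of its 3 member genes ranged from -0.96 to 0.12. *Polr1a* (chromosome 6, 71909053-71984935), the catalytic subunit, was at 7.69 FPKM (5.90 to 9.51) in WT control, 3.68 (2.81 to 4.56) in WT with AP3, 9.80 (7.54 to 12.1) in GEF-H1-/- control and 10.2 (7.88 to 12.7) in GEF-H1-/- with AP3 DCs. *Polr1b* (chromosome 2, 129100995-129126594), which completes the active site, was at 8.95 (7.08 to 10.8), 4.12 (3.20 to 5.03), 12.9 (10.3 to 15.5) and 12.0 (9.54 to 14.5) FPKM in the same order of groups. For both genes the WT group with AP3 lay below the intervals of the other 3 groups. The FPKM with AP3 was 0.479 times the control for *Polr1a* and 0.460 times for *Polr1b* in WT, with log2 ratios of -0.89 [-1.30, -0.49] and -0.96 [-1.33, -0.59], just short of a call. The genotype difference in the AP3 ratio was 0.95 [0.36, 1.54] for *Polr1a* and 0.86 [0.33, 1.40] for *Polr1b*. *Polr1c* (chromosome 17, 46243920-46248054), a subunit that RNA polymerase III also contains, was at 29.3 (22.7 to 35.7), 32.0 (24.5 to 39.4), 25.9 (20.1 to 31.6) and 23.3 (18.1 to 28.4) FPKM. It was the member with a higher value in WT with AP3, which was its highest group, but all 4 intervals overlapped and its WT ratio was 0.12 [-0.33, 0.57]. Of the polymerase subunits that are not members, *Polr1d*, which RNA polymerase III also contains, had a WT ratio of 0.15. The others had ratios of -0.81 (*Cd3eap*), -0.78 (*Polr1e*), -0.15 (*Twistnb*) and -0.02 (*Znrd1*), so a low ratio was not common to the subunits outside RNA polymerase III. These 5 genes were picked for naming after the values of the pathway were seen.

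**Figure D3:**
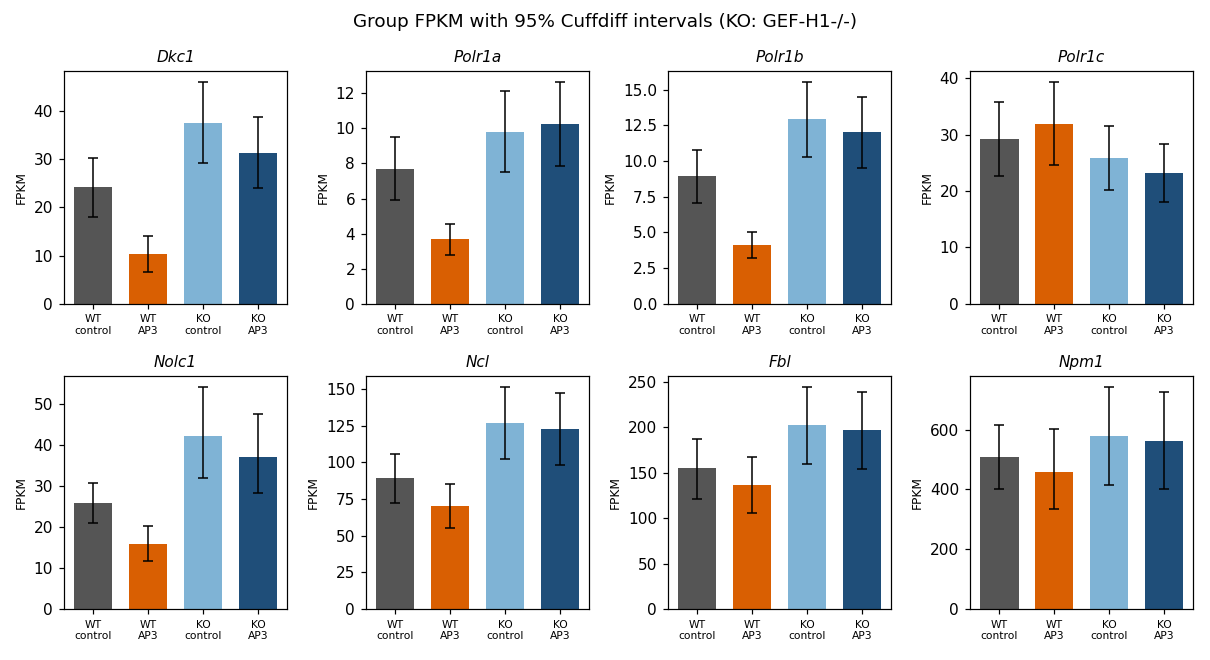
FPKM of 8 members in the 4 groups (KO stands for GEF-H1-/-), as 1 bar per group with the 95% Cuffdiff interval as error bar and axes starting at 0. The WT bar with AP3 is the lowest of the 4 in every panel except *Polr1c*. Its interval does not overlap that of WT control for *Dkc1*, *Polr1a*, *Polr1b* and *Nolc1*.

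Box H/ACA snoRNPs convert uridines of rRNA to pseudouridine, and their proteins are also part of telomerase. *Dkc1* (chromosome X, 75095854-75109777) encodes dyskerin, the enzyme of the particle. It was at 24.2 FPKM (18.1 to 30.3) in WT control, 10.2 (6.50 to 14.0) in WT with AP3, 37.5 (29.1 to 46.0) in GEF-H1-/- control and 31.3 (23.9 to 38.7) in GEF-H1-/- with AP3 DCs. *Dkc1* thus fell to 0.423 times the control in WT, with a log2 ratio of -1.17 [-1.76, -0.57]. In GEF-H1-/- DCs the ratio was -0.26 [-0.71, 0.20], the lowest of the members there, and the genotype difference was 0.91 [0.16, 1.66]. With AP3, *Dkc1* was 3.06 times as high in GEF-H1-/- as in WT DCs, a log2 ratio of 1.52 [0.94, 2.11] and the largest of the members in that comparison. The table places *Dkc1* and *Mpp1* at 1 shared locus. The other proteins of the particle differed from *Dkc1* in size of change. *Nop10* (chromosome 2, 112261926-112263269) was at 64.4 (38.3 to 67.0), 61.9 (36.7 to 64.3), 82.7 (49.1 to 85.3) and 83.9 (49.8 to 86.6) FPKM, with a WT ratio of -0.06 [-0.50, 0.39]. *Nhp2* was at 89.8 (63.2 to 116), 72.2 (50.5 to 92.4), 109 (76.1 to 139) and 102 (72.3 to 130) FPKM, with all intervals overlapping. *Gar1* was at 34.5, 22.6, 44.3 and 44.6 FPKM, with a WT ratio of -0.59 [-1.11, -0.07].

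Box C/D snoRNPs guide ribose methylation and, as the U3 particle, the first cleavages of the precursor. *Fbl* (chromosome 7, 28169710-28179269), the methyltransferase fibrillarin, was at 156 FPKM (122 to 188) in WT control, 137 (106 to 168) in WT with AP3, 202 (159 to 244) in GEF-H1-/- control and 197 (155 to 239) in GEF-H1-/- with AP3 DCs. Its intervals overlapped within each genotype, with a WT ratio of -0.18 [-0.63, 0.26]. *Nop56*, a scaffold of the particle, was at 60.6, 38.2, 91.2 and 84.1 FPKM, and its partner *Nop58* at 57.6, 44.6, 87.4 and 91.4 FPKM. Both were over 1 between the treated groups, at 1.12 and 1.02, and both share their loci with snoRNA genes. *Rrp9*, the protein specific to U3, was at 24.7 (19.7 to 29.6), 15.3 (11.8 to 18.8), 35.8 (28.6 to 42.9) and 35.6 (28.2 to 42.8) FPKM. Its control and treated intervals were apart in WT and nearly coincided in GEF-H1-/-, with a genotype difference of 0.65 [0.07, 1.23].

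The 6 nucleolar proteins with several functions had a median WT ratio of -0.38 and ranged from *Npm1* (-0.15) to *Nolc1* (-0.68). *Npm1* (chromosome 11, 33152287-33163206), nucleophosmin, a histone chaperone of the granular nucleolus, was the highest member in every group, at 508 (400 to 615), 457 (335 to 600), 577 (414 to 742) and 562 (403 to 727) FPKM. All of its intervals overlapped and its WT ratio was -0.15 [-0.67, 0.37]. *Ncl* (chromosome 1, 86344719-86359400), nucleolin, was at 89.1 (72.5 to 106), 70.2 (55.3 to 85.4), 127 (102 to 151) and 123 (98.4 to 147) FPKM, with a WT ratio of -0.34 [-0.74, 0.06] and a ratio between the controls of 0.50 [0.12, 0.89]. Its locus also holds the snoRNA genes *Snora75* and *Snord82*. *Nolc1* (chromosome 19, 46075863-46085530), a chaperone of snoRNPs, had the largest ratio between the controls, 0.69 [0.24, 1.14]. Its levels were 25.8 (21.0 to 30.6), 15.7 (11.7 to 20.2), 42.2 (32.0 to 54.0) and 37.1 (28.4 to 47.6) FPKM, with intervals apart both between the controls and between control and AP3 in WT. *Gnl3*, nucleostemin, a GTPase of proliferating cells, was at 28.0 (20.1 to 36.0), 20.8 (14.2 to 27.4), 43.6 (30.3 to 56.9) and 42.0 (28.7 to 55.4) FPKM. The ratio between the controls was 0.62 [0.03, 1.20], and its locus is shared with *Glt8d1*, *Spcs1*, *Snord19* and *Snord69*. *Mybbp1a* was at 53.3, 35.2, 73.6 and 72.2 FPKM and the RNA helicase gene *Ddx21* at 43.7, 35.9, 57.8 and 59.9 FPKM, with WT ratios of -0.58 and -0.28.

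The small-subunit processome assembles on the nascent precursor and releases the pre-40S particle. *Utp20* (chromosome 10, 88746607-88826804), a large scaffold protein of the processome, was at 7.85 (6.40 to 9.28), 4.50 (3.63 to 5.37), 9.20 (7.51 to 10.9) and 10.7 (8.72 to 12.6) FPKM in WT control, WT with AP3, GEF-H1-/- control and GEF-H1-/- with AP3 DCs. It was lower with AP3 in WT, at -0.69 [-1.01, -0.36], and had the highest ratio of the members in GEF-H1-/-, at 0.19 [-0.14, 0.53]. *Utp20* was the only member of the 7 in this set with a WT ratio under -0.5. *Heatr1*, a scaffold protein of the same complex, was at 12.6 (10.2 to 15.0), 11.4 (9.26 to 13.5), 14.5 (11.7 to 17.2) and 16.0 (13.0 to 19.0) FPKM, with overlapping intervals. *Nop14* was at 16.7 (13.1 to 20.2), 15.4 (11.7 to 19.1), 21.4 (16.8 to 26.1) and 21.3 (16.4 to 26.2) FPKM, and its AP3 ratios in the genotypes differed by 0.10 [-0.51, 0.72]. *Wdr43*, *Wdr75*, *Noc4l* and *Ddx10* had WT ratios of -0.44, -0.33, -0.33 and -0.18 and GEF-H1-/- ratios between -0.03 and 0.04. The late 40S factors, which mature and export the particle, had the smallest median WT ratio of the role groups, -0.29, with none of 4 under -0.5. *Ltv1*, an adaptor that leaves the particle late, was at 23.4 (18.8 to 28.0), 22.6 (17.8 to 27.4), 28.2 (22.7 to 33.8) and 32.0 (25.5 to 38.5) FPKM, with a WT ratio of -0.04 [-0.45, 0.36]. *Tsr1*, *Bysl* and *Pno1* had WT ratios of -0.49, -0.45 and -0.14, and in all 3 the intervals of WT control and AP3 overlapped.

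Early 60S assembly held the most members, and 7 of its 11 had a WT ratio under -0.5, against 11% of genes tested, with a median of -0.53. *Wdr12* (chromosome 1, 60069785-60098645) forms the PeBoW complex with *Pes1* and *Bop1*, which is needed for 28S rRNA maturation. *Wdr12* was at 13.2 (10.4 to 16.0), 6.78 (5.32 to 8.24), 18.7 (14.8 to 22.5) and 16.0 (12.7 to 19.3) FPKM, with a WT ratio of -0.86 [-1.26, -0.47] and a GEF-H1-/- ratio of -0.21 [-0.61, 0.19]. *Pes1* was at 44.6 (36.1 to 53.0), 34.2 (27.7 to 40.9), 45.6 (36.8 to 54.5) and 42.1 (33.9 to 50.3) FPKM, so it differed little between the controls (0.03 [-0.35, 0.42]). *Bop1* was at 36.6, 29.2, 47.6 and 47.1 FPKM. Within the complex the WT ratio of *Wdr12* was thus lower than those of *Pes1* (-0.37) and *Bop1* (-0.32), and the difference between the genes was not tested. *Nop2*, a methyltransferase of 28S rRNA, was at 29.0 (23.5 to 34.5), 16.3 (13.1 to 19.4), 38.9 (31.4 to 46.3) and 35.1 (28.5 to 41.8) FPKM, with a WT ratio of -0.80 [-1.17, -0.43]. *Noc2l* (chromosome 4, 156236010-156247616), whose locus is shared with *Samd11*, was at 36.0 (28.8 to 43.2), 21.7 (17.3 to 26.1), 56.0 (45.0 to 67.0) and 51.7 (41.5 to 61.8) FPKM. Its partner *Noc3l* was at 7.75 (6.15 to 9.35), 5.06 (4.02 to 6.08), 8.69 (6.92 to 10.4) and 9.08 (7.26 to 10.9) FPKM. Both were lower with AP3 in WT with intervals apart, while between the controls *Noc2l* was at 0.62 [0.23, 1.02] and *Noc3l* at 0.15 [-0.23, 0.52]. The RNA helicase gene *Ddx18*, the methyltransferase gene *Ftsj3* and *Rrs1*, which acts in 5S particle assembly, had WT ratios of -0.60, -0.58 and -0.51. *Nop16* and *Ebna1bp2* had WT ratios of -0.31 and -0.23 and ratios of 0.02 in GEF-H1-/-.

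The other genes of the pathway ran in the same direction with smaller sizes. Of 120 further ribosome biogenesis genes, all above the filter, 97 were lower in WT with AP3, against 49.6% of genes tested, and 27 were under -0.5, against 11%, with a median of -0.24 and none past 1 in either direction. In GEF-H1-/- DCs their median was -0.04 and none passed 0.5 in either direction. Between the controls 114 were higher in GEF-H1-/-, against 47.7% of genes tested, with a median of 0.20, and 5 were over 0.5, a share near the 4.19% of genes tested. By list, the WT median was -0.14 for 13 other RNA polymerase I genes, -0.26 for 43 small-subunit genes, -0.24 for 44 large-subunit genes and -0.29 for 20 snoRNP and exosome genes. The lowest WT ratios were those of *Sdad1* (-0.93, from 20.2 to 10.1 FPKM), the exosome gene *Exosc7* (-0.87, from 24.9 to 13.1 FPKM) and *Nat10*, an RNA acetyltransferase (-0.83, from 11.9 to 6.28 FPKM). In GEF-H1-/- DCs *Nat10* was at 17.9 and 17.7 FPKM, whereas *Sdad1* went from 20.5 to 16.1 FPKM. The highest WT ratios were those of *Eif6* (0.44, from 87.0 to 119 FPKM), which keeps the 60S subunit from joining the 40S, *Gltscr2* (0.36, from 112 to 143 FPKM) and *Taf1d* (0.27, from 27.0 to 32.6 FPKM). In GEF-H1-/- DCs these 3 were at 92.1 and 101, 90.6 and 92.0, and 29.3 and 32.4 FPKM in control and with AP3, a ratio of only 0.02 for *Gltscr2*. The approximate intervals of the ratios of all 3 genes include 0 in both genotypes.

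Ribosomal protein genes, the structural parts of the ribosome, ran the other way. Of 80 tested, 77 were higher in WT with AP3, against 50.1% of genes tested, with a median of 0.17. The changes were small, with 1 gene over 0.5, against 12.4% of genes tested. No gene had Cuffdiff intervals apart, against 9.19% of genes tested in the higher direction. Between the controls 61 were lower in GEF-H1-/-, against 52.1%, with a median of -0.06. In GEF-H1-/- DCs their median with AP3 was -0.01. The assembly factors and the structural proteins of the ribosome therefore had medians of opposite sign in WT DCs, -0.41 for the members and 0.17 for the ribosomal protein genes.

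**Figure D4:**
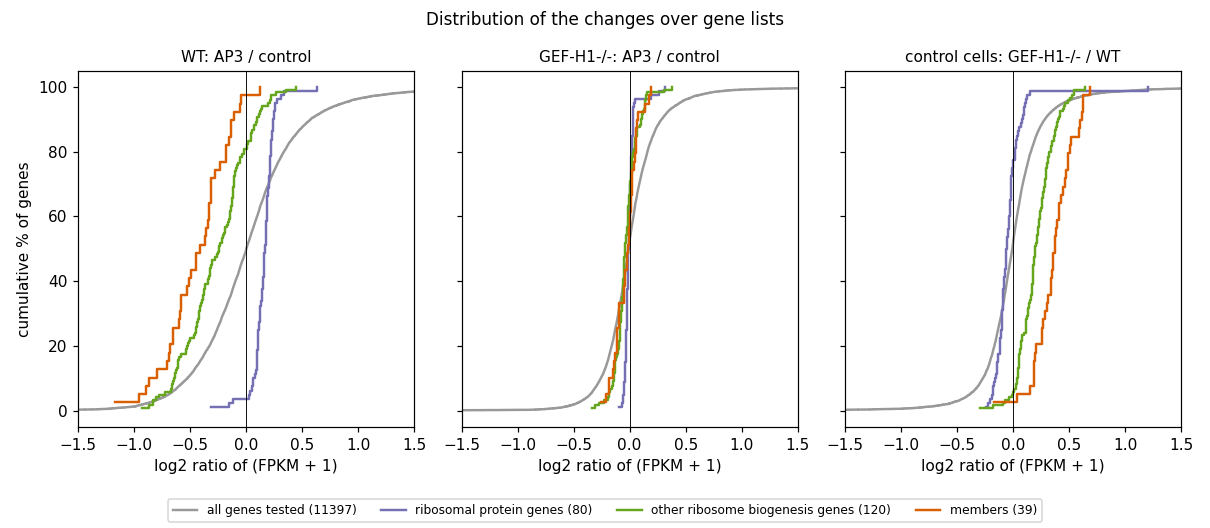
Cumulative percentage of genes by log2 ratio of (FPKM + 1) for AP3 in WT (left), AP3 in GEF-H1-/- (middle) and the genotype in control cells (right), for all genes tested (grey, 11397), ribosomal protein genes (purple, 80), other ribosome biogenesis genes (green, 120) and members (orange, 39). The members' curve lies left of all genes in WT with AP3 (median -0.41), near 0 in GEF-H1-/- (-0.02) and right in the control comparison (0.37), and the ribosomal protein genes lie right of 0 in WT (0.17).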

How the data were processed

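Strand-specific libraries were made from polyadenylated RNA of 8 BMDC samples and sequenced as paired ends. The authors computed FPKM with Cuffdiff 1.05, combining the 2 libraries of a group into 1 FPKM, and the deposited table adds the bounds of a 95% interval in FPKM. The genome build is mm10 per the labels. The aligner and annotation behind this table are not given in the sources used here. The columns of WT cells carry no genotype in their names, so they were matched by setting the GEF-H1 columns apart. The table held 0 unused columns of per-sample values.

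The 107 genes whose Cuffdiff status was not OK were left out, and a filter of 1 FPKM in at least 1 group kept 11397 genes. Log2 ratios of FPKM + 1 (pseudocount 1) were computed in Python 3.11.15 with pandas 2.3.3, numpy 2.4.6 and scipy 1.17.1. Approximate 95% intervals of these ratios treat the groups as independent and take the error from the width of the Cuffdiff interval. Each comparison used the pooled group values, since single libraries were not in the table, so limma was not run. The FPKM do not keep the number of fragments, so the depth reached is unknown. The total over genes was 604772 FPKM in WT control, 734144 in WT with AP3, 594706 in GEF-H1-/- control and 612810 in GEF-H1-/- with AP3. WT with AP3 thus had the highest total. Rescaling each group to the median ratio over genes used factors of 0.995 to 1.005. The computation was tested on simulated data.

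Members and gene lists were chosen with earlier results of these data known. Levels in all groups were given for *Ncl*, *Npm1*, *Fbl*, *Polr1a* and *Polr1b*, the 3 highest members, the 3 highest and 3 lowest ratios for AP3 in each genotype and between the controls, and the 3 highest and lowest genotype differences. Other members were named within their role. Of the other pathway genes, the 3 highest and 3 lowest WT ratios were named, with *Arhgef2* and *Myc* outside the pathway. The alternatives were other pseudocounts, filters, rescaling, thresholds and the removal of members on shared loci.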

Additional observations from a re-analysis of the deposited data

Results flagged for a closer look

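For 3 members the AP3 ratio had opposite signs in the genotypes, with a log2 ratio of at least 0.1 in size in each. *Utp20*, of the small-subunit processome, was lower in WT (-0.69) and higher in GEF-H1-/- DCs (0.19), a difference of 0.88 [0.41, 1.35]. *Heatr1*, of the same complex, was at -0.14 in WT and 0.14 in GEF-H1-/- DCs, a difference of 0.27 [-0.23, 0.78]. *Polr1c*, shared by RNA polymerases I and III, was at 0.12 in WT and -0.15 in GEF-H1-/- DCs, a difference of -0.27 [-0.89, 0.36]. These differences were not tested, since the table has no values of single libraries. The approximate intervals of the GEF-H1-/- ratios of all 3 genes, and of the WT ratios of *Heatr1* and *Polr1c*, include 0.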

How the results depend on the processing

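No paired analysis was possible because the table gives 1 value per group, and for the same reason no library could be left out. Thresholds and call rules do not enter the median ratio of the members, so it was recomputed only under the other alternatives. It kept its sign there, at -0.43 to -0.34 for AP3 in WT and 0.34 to 0.38 between the controls. It was 0.67 to 0.81 between the treated groups and 0.31 to 0.37 for the genotype difference. For AP3 in GEF-H1-/- it lay between -0.02 and 0. No result past a log2 ratio of 1 changed sign. Pseudocounts and filters cannot change the sign of a ratio between 2 groups, so few reversals were possible. Counts past a threshold depended on the pseudocount. With 0.1 FPKM, 3 members were called for AP3 in WT in place of 1 and 2 for the genotype difference in place of 0. With 5 FPKM, 0 were called for AP3 in WT and 5 between the treated groups in place of 12. With 5 FPKM, the other pathway genes past 0.5 were 11 for AP3 in WT in place of 27, 1 between the controls in place of 5, 31 between the treated groups in place of 49 and 6 for the genotype difference in place of 19, and the median of the RNA polymerase I members between the treated groups was 0.81 in place of 1.26. Between the treated groups, *Polr1a* was then at 0.81, *Polr1b* at 0.90 and *Utp20* at 0.72. At a threshold of 0.5, 16, 8, 29 and 14 members were called for AP3 in WT, between the controls, between the treated groups and for the genotype difference. Without the 13 members on shared loci, 0 were called for AP3 in WT, because *Dkc1* is among them, and 7 between the treated groups. Of 780 recomputed ratios of named genes, 775 stayed within their interval. Filters and the removal of other genes cannot change the ratio of a gene, so many of these agreements were fixed in advance. Over all genes tested, the calls for AP3 in WT, AP3 in GEF-H1-/-, between the controls, between the treated groups and for the genotype difference were 563, 123, 214, 463 and 216. They became 956, 212, 372, 801 and 387 with 0.1 FPKM and 318, 77, 101, 206 and 123 with 5 FPKM. At a threshold of 0.5 they were 2671, 660, 818, 2205 and 1364. With Cuffdiff intervals apart as well, 70 remained for AP3 in GEF-H1-/- and 141 for the genotype difference. For the genotype difference, this rule asked only that control and AP3 intervals be apart in at least 1 genotype. It did not use an interval of the difference itself. The duplicates are not seen singly, so the spread between libraries, and whether 1 library carries a value, was not tested.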
